A study of Mus musculus with 31 samples.

Results

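Immunoglobulin variable segments are the gene pieces that encode most of the antigen-binding part of an antibody. The genes described here are those whose symbol begins with Ighv (heavy chain), Igkv (kappa light chain) or Iglv (lambda light chain) and that had at least 30 counts summed over 19 spleen libraries. There were 89 of them among 29120 genes: 27 Ighv, 59 Igkv and 3 Iglv segments. RNA of 9 spleens from Gpr34-/- mice was compared with RNA of 10 spleens from wild-type mice, all C57BL/6 and 12 weeks old. The knockout lacks Gpr34, a G protein-coupled receptor for lysophosphatidylserine, and the title of the series places the study in the regulation of that receptor. The labels do not give the sex of the spleen donors or say whether the knockout is conditional. A further 12 libraries, used only as a background level, are dendritic cells grown with GM-CSF from marrow of male C57BL/6 mice aged 8 to 16 weeks. They are 3 LPS-treated (8 h) and 3 naive cultures labelled Gpr34-/-, and 3 of each labelled wild-type.

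In the bone marrow a developing B cell joins 1 variable segment to a joining segment (and, in the heavy chain, to a diversity segment), and the RNA of that rearranged gene is then spliced to a constant region. Each B cell, and every cell that descends from it, therefore transcribes mainly a single rearranged heavy chain gene and a single rearranged light chain gene. In mouse most light chains are kappa, and only a few lambda segments exist. Spleen holds naive B cells, which carry little antibody RNA each, and plasma cells, which carry a great deal. The level of a segment in whole-spleen RNA thus sums over many B cells with little RNA and a few plasma cells with much, and fewer cells of a type and less RNA per cell cannot be told apart in these bulk samples.

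The GENCODE M21 annotation of GRCm38 lists 348 variable segments, 185 Ighv, 160 Igkv and 3 Iglv. The other 259 had no line in any count file and were not analysed here, so every share below is a share among the 89 measured segments and not of the whole antibody repertoire. By annotation 79 of the 89 were functional segments, 8 were pseudogenes and 2 had the type IG_LV_gene. The Ighv segments lie on chromosome 12, the Igkv segments on chromosome 6 and the Iglv segments on chromosome 16. No segment with a line in the files fell below the minimum. The members with the fewest counts were Igkv1-35 with 58, Ighv1-13 with 262 and Igkv18-36 with 446 over the 19 spleens.

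The sequences of 6 segments are given because the results below turn on them. Each is the 3′ end of the exon that encodes the variable domain, at most 300 bases, 5′ to 3′, from the longest GENCODE M21 transcript. For the lambda pair the capitals mark the bases that differ between Iglv1 (chr16:19085017-19085316, minus strand) and Iglv2 (chr16:19260401-19260700, minus strand). They differed at 8 of these 300 positions, an identity of 97.3%.
Iglv1: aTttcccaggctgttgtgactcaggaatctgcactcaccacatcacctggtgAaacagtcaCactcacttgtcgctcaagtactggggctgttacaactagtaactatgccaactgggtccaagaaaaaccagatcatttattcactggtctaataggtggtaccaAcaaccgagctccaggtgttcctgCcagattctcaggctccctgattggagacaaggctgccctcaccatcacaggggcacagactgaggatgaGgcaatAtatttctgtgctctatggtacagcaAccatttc
Iglv2: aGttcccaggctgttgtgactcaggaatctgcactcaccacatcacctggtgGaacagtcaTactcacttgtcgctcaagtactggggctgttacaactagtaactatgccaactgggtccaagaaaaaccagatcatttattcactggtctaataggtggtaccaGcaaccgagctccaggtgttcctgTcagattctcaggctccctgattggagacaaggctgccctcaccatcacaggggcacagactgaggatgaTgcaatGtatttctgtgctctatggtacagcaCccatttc

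The other 4 are Ighv3-6 (chr12:114288152-114288451, minus strand), the leading heavy chain segment, Igkv5-39 (chr6:69900424-69900721, minus strand), the leading kappa segment, and Igkv12-46 (chr6:69764523-69764820, minus strand) and Igkv11-106 (chr6:68339696-68339995, plus strand), which had the smallest p between the genotypes. Capitals mark TATTNCTGT, searched on the coding strand only, whose last triplet encodes the conserved cysteine near the end of the variable domain. Of the 89 segments 43 held it in their last 300 bases (48.3%), against 1.32% of the longest transcripts of 46254 other genes. A match here is a description of the letters and nothing more.
Ighv3-6: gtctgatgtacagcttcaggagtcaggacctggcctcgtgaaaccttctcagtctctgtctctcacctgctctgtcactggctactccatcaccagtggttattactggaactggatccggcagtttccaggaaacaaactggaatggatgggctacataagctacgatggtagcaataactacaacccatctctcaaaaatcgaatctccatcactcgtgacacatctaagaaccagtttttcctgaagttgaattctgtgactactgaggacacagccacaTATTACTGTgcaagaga
Igkv5-39: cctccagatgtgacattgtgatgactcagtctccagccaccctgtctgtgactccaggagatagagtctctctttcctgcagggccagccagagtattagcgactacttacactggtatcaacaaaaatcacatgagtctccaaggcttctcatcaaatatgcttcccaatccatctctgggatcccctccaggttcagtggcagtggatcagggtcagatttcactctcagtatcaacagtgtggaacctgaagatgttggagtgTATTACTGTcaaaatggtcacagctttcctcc
Igkv12-46: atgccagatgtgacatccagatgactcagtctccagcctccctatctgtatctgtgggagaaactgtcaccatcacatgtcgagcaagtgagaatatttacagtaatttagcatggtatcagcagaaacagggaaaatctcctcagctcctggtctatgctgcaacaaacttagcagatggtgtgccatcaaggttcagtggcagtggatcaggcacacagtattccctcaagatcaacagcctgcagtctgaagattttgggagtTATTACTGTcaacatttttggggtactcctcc
Igkv11-106: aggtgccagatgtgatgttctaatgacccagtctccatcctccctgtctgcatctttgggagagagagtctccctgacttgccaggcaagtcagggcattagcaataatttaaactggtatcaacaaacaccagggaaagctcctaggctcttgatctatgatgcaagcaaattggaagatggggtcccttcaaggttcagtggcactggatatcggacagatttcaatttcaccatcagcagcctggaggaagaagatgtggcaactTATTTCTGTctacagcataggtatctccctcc

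Because segments of a family resemble each other, the stretches of 50 bases that each segment shares with any other annotated segment were counted. Of the 89 segments 32 shared none, and the median segment shared 5.26% of its stretches. The highest share was 64.1%, between Igkv6-20 and Igkv6-29, which were both measured. Iglv1 shared 22.2% of its stretches and Iglv2 shared 24.0%, each with the other. Igkv5-39 shared none, Ighv3-6 shared 3.32%, Igkv11-106 shared 4.04% and Igkv12-46 shared 9.76%. Among the 259 segments without a line the median was 17.8%. The sources used here do not state how reads matching several segments were counted, or whether strand was used. Values of segments that share stretches are therefore uncertain.

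Total counts were 80590338 to 133277070 in knockout and 56834377 to 119384704 in wild-type spleens. Gpr34 itself had 42 to 156 counts in knockout and 308 to 986 counts in wild-type spleens, with no overlap, as the labels have it. Levels below are CPM, a gene's counts scaled to a common total of all counts in a library, and fold changes come from 1 fit over all genes with TMM-scaled library sizes. Nothing in the labels ties a spleen number to an animal, so the p-values speak only of the spread among these libraries, some of which may be technical.

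The RNA of variable segments was on average lower in knockout spleens, in all 3 classes. All 89 segments together made up 616 to 1158 CPM in knockout spleens (median 934) and 1047 to 2235 CPM in wild-type spleens (median 1345). The means were 908.9 ± 173 CPM in the knockout (SD, n = 9) and 1433 ± 365 CPM in the wild-type (SD, n = 10), a log2 ratio of means of -0.66. The groups overlapped, but 7 of the 9 knockout spleens lay below every wild-type spleen and 8 of the 10 wild-type spleens lay above every knockout spleen. These CPM leave out the TMM factors, which averaged 0.96 in knockout and 1.04 in wild-type spleens. With those factors applied, the difference between the sums would be smaller. As a sum over genes chosen with earlier results known, this difference is given without a p.

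Heavy chain segments summed to 69.5 to 125 CPM in knockout spleens (median 104) and to 121 to 323 CPM in wild-type spleens (median 155). Wild-type spleen 1 held the highest value, and the other wild-type spleens were at 121 to 199 CPM. The log2 ratio of means was -0.74, and between -0.79 and -0.59 when each spleen was left out in turn. Kappa segments summed to 423 to 868 CPM in knockout spleens (median 689) and to 680 to 1576 CPM in wild-type spleens (median 1015), with a log2 ratio of -0.68. Every knockout spleen was below the wild-type median for both of these classes and for the lambda segments. Lambda segments summed to 102 to 187 CPM in knockout spleens (median 148) and to 125 to 337 CPM in wild-type spleens (median 192), with a log2 ratio of -0.49. These ranges overlapped, with 3 of the 9 knockout spleens below every wild-type spleen, against 4 for kappa and 6 for heavy chain segments.

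**Figure D1:**
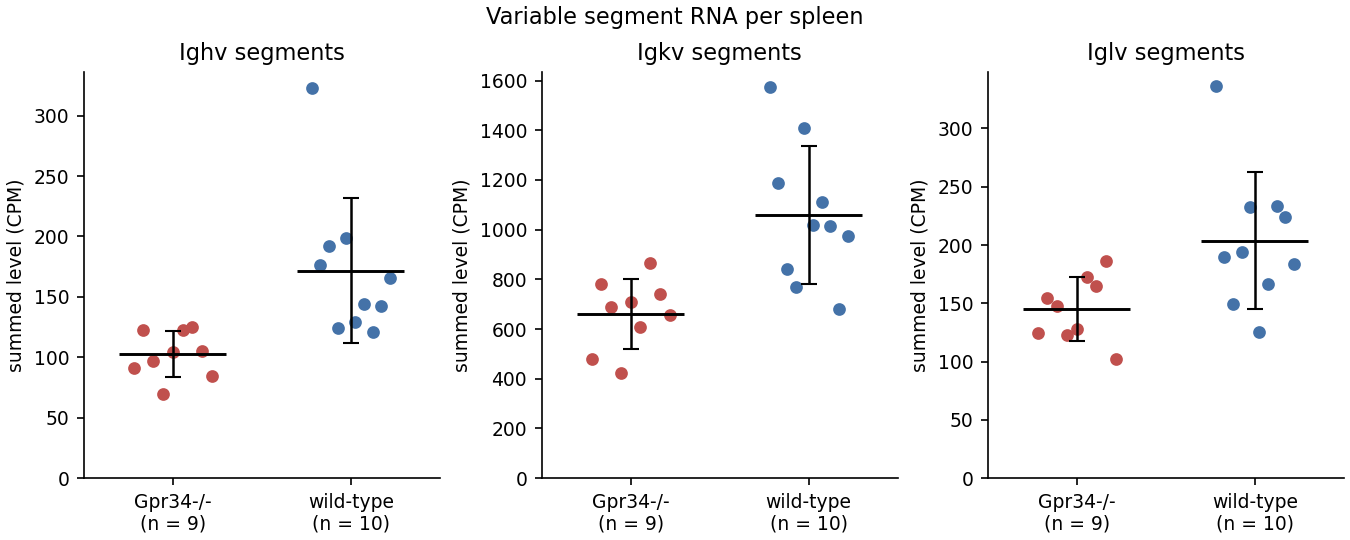
Summed level of Ighv, Igkv and Iglv segments in CPM (vertical axes, from 0) in 9 Gpr34-/- and 10 wild-type spleens; each point is a spleen, and lines and bars are the mean ± SD. The knockout points lie lower and closer together, and 1 wild-type spleen stands highest in each class, at 323, 1576 and 337 CPM.

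The balance between the classes moved little. Lambda segments made up 18.2 ± 3.22% of the light chain segment counts in knockout spleens (SD, n = 9; 13.4 to 22.5%) and 16.4 ± 4.02% in wild-type spleens (SD, n = 10; 11.0 to 24.8%). The difference of 1.83 percentage points was smaller than either SD. Heavy chain segments took 11.4 ± 1.26% of all variable segment counts in knockout spleens and 11.9 ± 2.24% in wild-type spleens (SD, n = 9 and n = 10). The low heavy chain share covers only the 27 measured of 185 annotated segments.

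Variable segments were set beside the constant regions to which they are spliced. Igkc, the kappa constant region, averaged 1886 ± 518 CPM in knockout and 2554 ± 648 CPM in wild-type spleens (SD, n = 9 and n = 10). For each 100 counts of Igkc there were 36.2 ± 7.24 counts of Igkv segments in the knockout and 41.8 ± 5.40 in the wild-type (SD, n = 9 and n = 10). The knockout range was 24.1 to 50.7 and the wild-type range 33.7 to 49.5. Knockout spleen 6 held the 50.7, and the other knockout spleens reached at most 41.5. Of the 9 knockout spleens 8 lay below the wild-type median of 42.9, and 3 lay below every wild-type spleen. Iglc2, a lambda constant region, gave 97.4 ± 24.2 Iglv counts for each 100 of its own counts in the knockout and 117 ± 38.7 in the wild-type.

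Use of the heavy chain segments was uneven. A segment's share here is its count divided by the length of its exons, as a percentage of the sum over its class in that spleen. Ighv3-6 held the highest mean share, 20.9% over the 19 spleens, followed by Ighv6-3 (13.7%), Ighv6-6 (11.0%), Ighv14-4 (8.15%) and Ighv1-18 (7.75%). These 5 of 27 segments took 61.5% of the class together, and the leading 4 took more than 50%. The segment with the smallest share, Ighv1-13, averaged 0.137%.

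Ighv3-6 led in 5 of 9 knockout spleens and in 7 of 10 wild-type spleens. Its share was 13.2 to 41.1% in the knockout (median 19.3%) and 12.5 to 29.3% in the wild-type (median 22.2%). The 41.1% belonged to knockout spleen 9, and the other knockout spleens were at 13.2 to 21.05%. Ighv6-3 led in 2 knockout spleens and 1 wild-type spleen, Ighv14-4 in 1 of each, Ighv6-6 in 1 knockout spleen and Ighv4-1 in 1 wild-type spleen. By family, as the symbols give it, the 3 Ighv6 segments held 28.6 ± 6.65% of the class in knockout and 23.9 ± 5.82% in wild-type spleens (SD, n = 9 and n = 10), and the 3 Ighv3 segments held 23.6 ± 8.30% in knockout and 25.9 ± 5.92% in wild-type spleens.

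The 4 measured Ighv1 segments held 8.65 ± 3.01% of the class in knockout and 10.0 ± 3.48% in wild-type spleens (SD, n = 9 and n = 10). Along the locus on chromosome 12, the 9 middle segments, from Ighv14-4 to Ighv6-6, held 61.4 ± 4.64% in knockout and 59.5 ± 6.91% in wild-type spleens. The 9 with the highest coordinates, from Ighv6-7 to Ighv8-14, held 17.6 ± 3.89% in knockout and 21.2 ± 4.42% in wild-type spleens. Each of these differences was smaller than the SD of either genotype.

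Use of the kappa segments was spread over many more genes. Igkv5-39 had the highest mean share, 7.62%, followed by Igkv17-121 (3.90%), Igkv4-57 (3.85%), Igkv15-103 (3.80%) and Igkv4-57-1 (3.77%). These 5 of 59 took 22.9% of the class, and it took 15 segments to reach 50%. This order takes the counts as given. Counts of Igkv5-39 were even in every spleen and those of the segments ranked next to it were not, so segments may not have been counted alike. How far this raises the share of Igkv5-39 was not tested. The largest family, Igkv4 with 19 members, held 25.8 ± 4.24% of the class in knockout and 30.6 ± 7.10% in wild-type spleens (SD, n = 9 and n = 10). The 3 Igkv5 segments held 14.6 ± 8.01% in knockout and 8.04 ± 3.89% in wild-type spleens, most of it from Igkv5-39. Along the locus on chromosome 6, the 21 middle segments, from Igkv13-87 to Igkv12-46, held 30.7 ± 4.83% in knockout and 38.3 ± 9.58% in wild-type spleens. The 19 with the highest coordinates, which include Igkv5-39, held 38.4 ± 6.32% in knockout and 31.7 ± 7.43% in wild-type spleens. Both differences were larger than the knockout SD and smaller than the wild-type SD, and they were not tested.

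By the counts as given, Igkv5-39 was the leading kappa segment in 8 of 9 knockout spleens and in 2 of 10 wild-type spleens. Its counts were even in every spleen, unlike those of Igkv17-121, Igkv4-57, Igkv15-103 and Igkv8-24. If its reads alone were counted more than once, these leads would be overstated, which was not tested. The share of Igkv5-39 was 1.83 to 23.7% in the knockout (median 8.95%) and 1.54 to 11.4% in the wild-type (median 3.40%). Knockout spleens 2 and 7 were the highest, at 23.0% and 23.7%, and knockout spleen 1 was among the lowest of all at 1.83%. In CPM it was at 8.23 to 198 in knockout spleens (median 54.7) and at 12.2 to 130 in wild-type spleens (median 32.0), so the groups overlapped widely. Its log2 fold change of 0.87 (SE 0.50) did not pass (edgeR quasi-likelihood test with Benjamini-Hochberg adjustment, adjusted p = 0.377), nor did its share within the class (log2 fold change 1.34, SE 0.44, adjusted p = 0.15 by the same test).

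The remaining wild-type spleens were led by 7 other kappa segments, Igkv15-103 in 2 and Igkv17-121, Igkv6-20, Igkv8-24, Igkv4-70, Igkv4-57 and Igkv4-57-1 in 1 each, while Igkv8-24 led the remaining knockout spleen. Pseudogenes took a share of the kappa class as well. The 6 pseudogenes held 5.21 ± 1.0% in knockout and 7.09 ± 1.75% in wild-type spleens (SD, n = 9 and n = 10), and Igkv11-106, annotated as a pseudogene, ranked 8th of the 59 at 3.28%. The 16 kappa segments on the plus strand held 32.5 ± 5.37% in knockout and 31.5 ± 6.43% in wild-type spleens.

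The lambda class was Iglv1 with a mean share of 43.7%, Iglv2 with 34.8% and Iglv3 with 21.5%. Iglv1 led in 8 of 9 knockout and 9 of 10 wild-type spleens, and Iglv2 in knockout spleen 7 and wild-type spleen 4. Iglv1 was at 36 to 49.9% of the class in knockout (median 43.3%) and 38.1 to 51.6% in wild-type spleens (median 42.8%). Iglv1 and Iglv2 share the stretches counted above, and whether the placing of such reads bears on their division was not tested. Relative to all genes the log2 fold changes were -0.43 (SE 0.19) for Iglv1, -0.26 (SE 0.14) for Iglv2 and -0.44 (SE 0.14) for Iglv3, and none passed (edgeR quasi-likelihood test with Benjamini-Hochberg adjustment, adjusted p = 0.249, 0.340 and 0.132). DESeq2 called Iglv3 (adjusted p = 0.0486).

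Evenness did not separate the genotypes. It is given as the effective number of segments, the number of equally used segments that would have the same Shannon entropy. For Ighv it was 12.2 ± 1.16 in knockout (9.86 to 13.7) and 12.2 ± 1.21 in wild-type spleens (10.4 to 14) (SD, n = 9 and n = 10). For Igkv it was 40.5 ± 5.78 in knockout (30.6 to 45.2) and 40.9 ± 2.90 in wild-type spleens (37.1 to 46.3). Knockout spleens 2 and 7, where Igkv5-39 took over 20% of the class, had the lowest Igkv values, 30.7 and 30.6, and the other 7 knockout spleens were at 41.3 to 45.2. The even counts of Igkv5-39 described above enter these values too. For Iglv it was 2.86 ± 0.04 in knockout and 2.87 ± 0.06 in wild-type spleens. As a fraction of the largest possible entropy, evenness was 0.757 ± 0.03 in knockout and 0.757 ± 0.03 in wild-type spleens for Ighv, and 0.905 ± 0.04 in knockout and 0.91 ± 0.02 in wild-type spleens for Igkv.

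**Figure D2:**
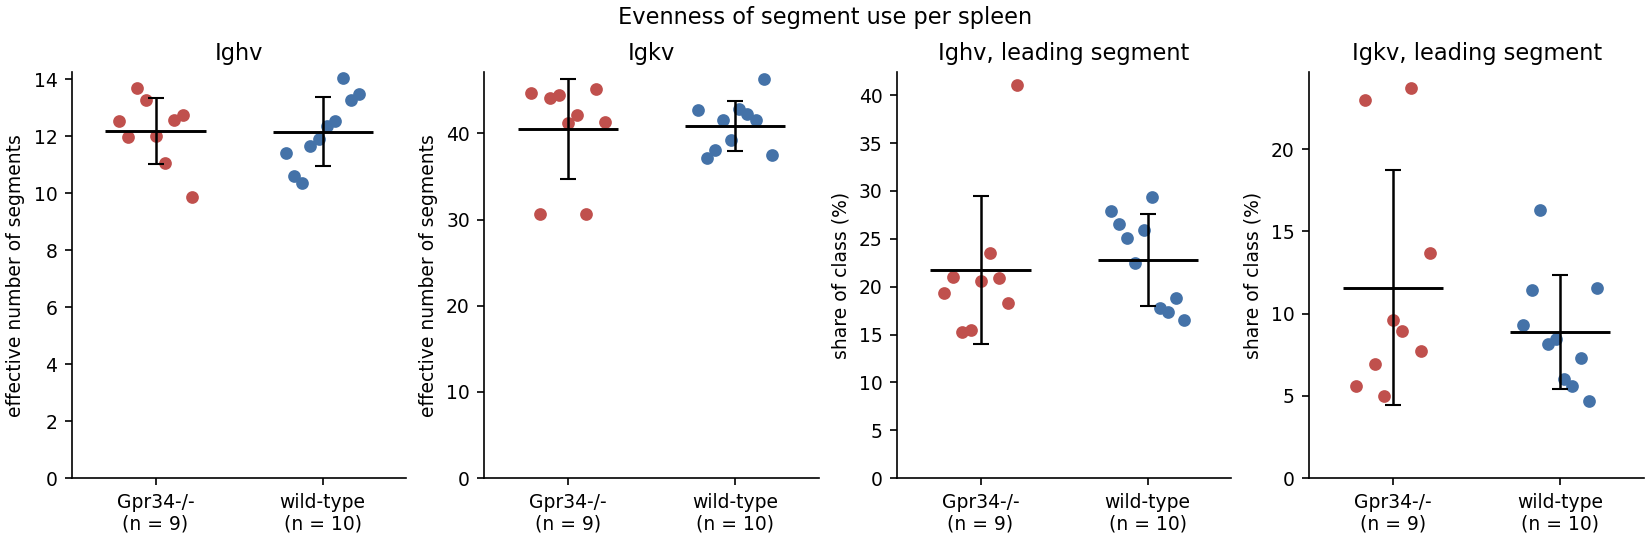
Effective number of Ighv and Igkv segments and share of the leading segment in percent (vertical axes, from 0) in 9 Gpr34-/- and 10 wild-type spleens; points are spleens, lines and bars the mean ± SD. The genotypes overlap in every panel, and knockout spleens 2 and 7 stand apart in the Igkv panels, at 30.7 and 30.6 segments with leading shares of 23.0% and 23.7%.

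The use of a segment varied between spleens of the same genotype. The Iglv class has only 3 segments, each with a large share, which leaves this measure less room. The classes are therefore not ranked by it. Among segments with a mean of at least 1 CPM, the median coefficient of variation of a share between spleens was 0.421 in the knockout and 0.434 in the wild-type for the 18 such Ighv segments. It was 0.338 in the knockout and 0.411 in the wild-type for the 57 Igkv segments, and 0.0952 in the knockout and 0.127 in the wild-type for the 3 Iglv segments. Counting error alone, a floor that separate spleens would be expected to exceed, had medians of 0.0491 for Ighv, 0.0298 for Igkv and 0.0135 for Iglv. It may be larger for segments whose reads were counted more than once. Counts of some segments, such as Igkv5-39 and Igkv6-13, were even in every spleen, while those of others, such as Ighv7-1, were not. The steadiest segments in their class, with the spread within genotype over both, were Ighv7-1 (0.258), Igkv6-13 (0.208) and Iglv3 (0.0841).

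In single spleens of both genotypes a segment stood far above its usual share. With a share of at least 3 times the segment's median over 19 spleens and at least 1% of the class, thresholds chosen after the values were seen, 33 such high shares were found, 15 in knockout and 18 in wild-type spleens. They occurred in 8 of 9 knockout and 9 of 10 wild-type spleens, with at most 3 in a spleen. The largest step was Ighv1-47 in wild-type spleen 6, where it held 7.96% of the heavy chain class, 9.75 times its median of 0.816%. Igkv6-20 in wild-type spleen 3 held 16.3% of the kappa class, 7.51 times its median of 2.17%. Its close relative Igkv6-29, which shares 64.1% of the 50-base stretches with it, was at 2.33% in the same spleen against its median of 0.984%, below the threshold used here but higher than in every other spleen except wild-type spleen 4 (2.94%). How far shared reads enter this was not tested.

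Further examples in the heavy chain class were Ighv14-4, at 20.6% in knockout spleen 5 and 25.1% in wild-type spleen 3 against a median of 6.24%, and Ighv4-1, at 18.9% in wild-type spleen 9 against a median of 4.29%. Ighv12-3 was high in knockout spleens 1, 7 and 8 at 3.97%, 4.84% and 3.94% of the class (median 0.871%). Ighv6-7 was high in 2 knockout and 3 wild-type spleens, at 2.75 to 4.48% (median 0.823%). In the kappa class Igkv15-103 was at 11.6% in wild-type spleen 10 (median 3.19%), Igkv4-70 at 8.45% in wild-type spleen 5 (median 1.96%), Igkv1-131 at 3.99% in knockout spleen 9 (median 0.852%) and Igkv3-7 at 3.92% in knockout spleen 3 (median 0.900%). Igkv13-85 was at 1.34% in wild-type spleen 2 (median 0.233%). Of the segments with a high share in more than 1 spleen, Ighv14-4, Ighv6-7 and Igkv7-33 had them in both genotypes, Ighv12-3 and Igkv5-39 in knockout spleens and Ighv3-8 in wild-type spleens.

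**Figure D3:**
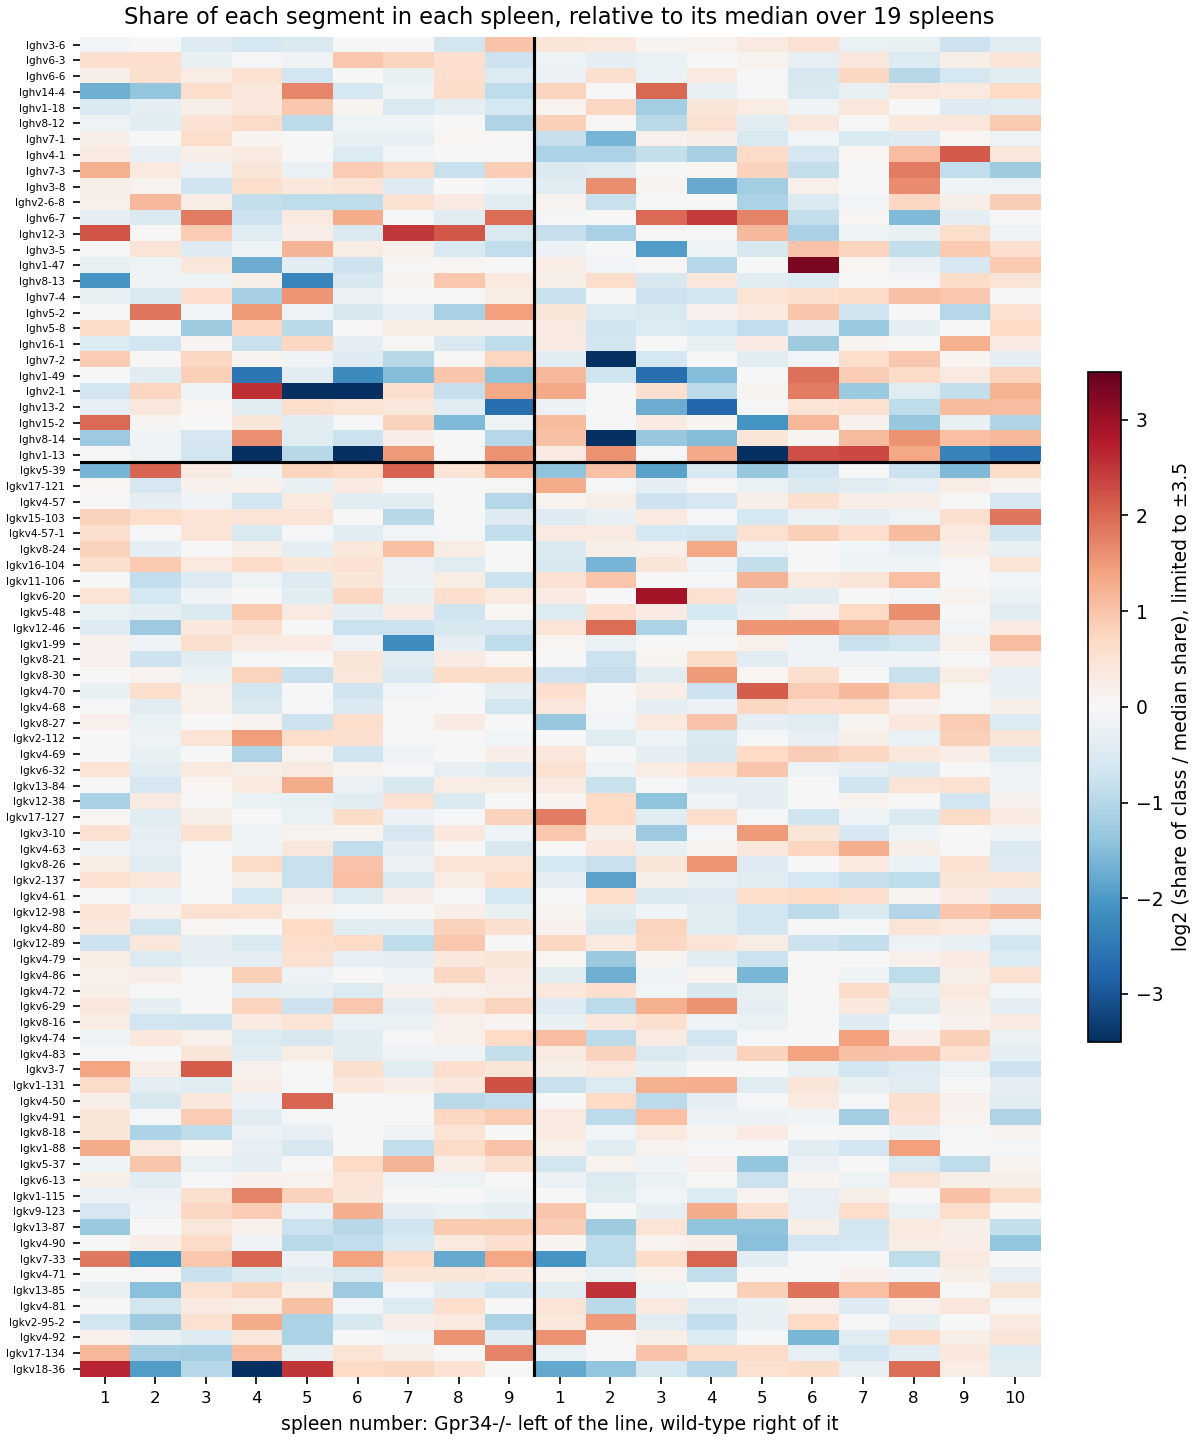
Each row is an Ighv (upper block) or Igkv (lower block) segment in order of mean share, each column a spleen (9 Gpr34-/- left, 10 wild-type right), and the colour is the log2 of the segment's share over its median over 19 spleens. Isolated red cells mark segments high in a single spleen, such as Ighv1-47 in wild-type spleen 6 and Igkv6-20 in wild-type spleen 3, in both genotypes.

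Segment by segment, most variable segments had lower values in the knockout, but none passed the test over all genes. Of the 88 segments tested (Igkv1-35 had too few counts), 80 had a negative log2 fold change of knockout over wild-type, against 48.1% of the 20371 genes tested, and their median was -0.55, against 0.01 over all genes. None had an adjusted p under 0.05 (edgeR quasi-likelihood test with Benjamini-Hochberg adjustment), and over all genes 0.177% did, 0.0785% in the lower direction. At an unadjusted p under 0.05, 41 segments were lower and 0 were higher, against 8.79% of all genes lower. The segments of 1 spleen share cells and library, so these 41 are not independent of each other. No segment had knockout and wild-type CPM ranges that did not overlap, whereas 0.0736% of all genes had every knockout spleen below every wild-type spleen.

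The count of 0 depends on the tool and on single spleens. DESeq2 called 23 segments, all lower, of the 78 to which it gave an adjusted p, against 2.65% of the genes with an adjusted p called lower. Limma voom with sample weights called 2, with 3.88% of all genes called, so the segments were called no more often than genes at large. EdgeR with RLE factors called 1 segment and 0.211% of all genes. Without composition factors edgeR called 9 segments and 0.933% of all genes, and the median of all genes then shifted to -0.10. Leaving out knockout spleen 6 gave 11 called segments, but the calls over all genes then numbered 1051 (5.1%), against 36 with all spleens. Leaving out wild-type spleen 4 gave 3 segments (0.27% of all genes), wild-type spleen 9 gave 2 (0.114%), and wild-type spleens 2 and 3 gave 1 each (0.505% and 0.108%), while leaving out any other single spleen gave 0 segments.

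By class, 26 of 27 Ighv segments had a negative log2 fold change (median -0.68, 11 at an unadjusted p under 0.05), 51 of 58 Igkv segments (median -0.53, 28 at an unadjusted p under 0.05) and 3 of 3 Iglv segments (median -0.43, 2 at an unadjusted p under 0.05). Of all genes tested 48.1% had a negative value, and 8.79% were lower at that unadjusted p. The segments' values reached from -1.59 to 0.64 in Ighv and from -1.89 to 0.87 in Igkv. The exception in Ighv was Ighv12-3, at 0.64 (SE 0.46), and the 7 in Igkv were led by Igkv5-39. Every class therefore had its median below 0, with single Ighv and Igkv segments on the other side.

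The 5 segments with the smallest p were all kappa segments and are named after their values were seen. Igkv11-106 was at 9.94 to 23.8 CPM in knockout (median 13.4) and 18.1 to 85.4 CPM in wild-type spleens (median 37.1). Knockout spleens 6, 7 and 8 reached into the lower end of the wild-type range. Its log2 fold change was -1.36 (SE 0.28), just short of the threshold (edgeR quasi-likelihood test with Benjamini-Hochberg adjustment, adjusted p = 0.0507). Igkv12-46 was at 6.43 to 17.6 CPM in knockout (median 10.1) and 7.77 to 92.9 CPM in wild-type spleens (median 41.3), and its log2 fold change was -1.89 (SE 0.40, edgeR adjusted p = 0.0555). Wild-type spleens 3, 4 and 9 held 7.77, 14.4 and 12.6 CPM of it, inside the knockout range.

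The other 3 were Igkv13-85 (log2 fold change -1.84, SE 0.43), Igkv4-83, annotated as a pseudogene (-1.28, SE 0.30), and Igkv4-68 (-1.03, SE 0.25), with edgeR adjusted p of 0.0661, 0.0671 and 0.0704. Igkv4-68 was at 7.80 to 23.0 CPM in knockout (median 15.6) and 17 to 60.0 CPM in wild-type spleens (median 29.6). Of the leading heavy chain segments, Ighv3-6 was at 9.11 to 34.1 CPM in knockout (median 17.2) and 16.9 to 88.8 CPM in wild-type spleens (median 32.2), with a log2 fold change of -0.82 (SE 0.27, edgeR adjusted p = 0.148). Ighv6-3 and Ighv6-6 had smaller values, -0.21 (SE 0.26) and -0.45 (SE 0.26). Ighv14-4 was at -1.01 (SE 0.47) and Ighv1-18 at -0.68 (SE 0.28), also without passing. DESeq2 called all 5 of the segments with the smallest p (adjusted p from 0.000179 for Igkv12-46 to 0.00334 for Igkv4-68) and Ighv3-6 (adjusted p = 0.0475), but not Ighv6-3, Ighv6-6, Ighv14-4 or Ighv1-18.

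**Figure D4:**
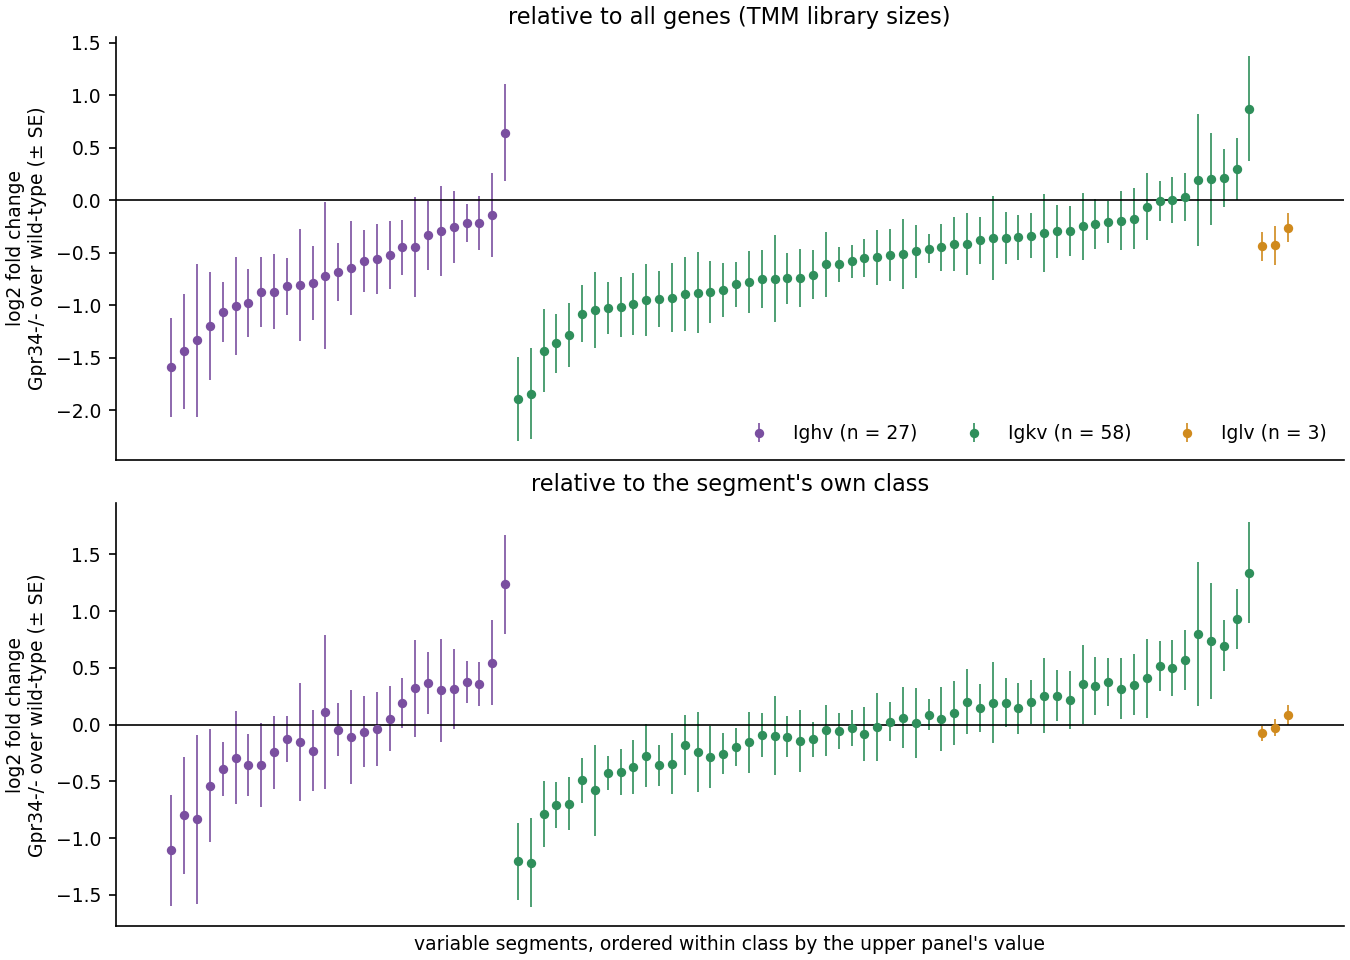
Log2 fold change of Gpr34-/- over wild-type spleens with its SE (vertical axes) for 88 segments, ordered within class; the upper panel is relative to all genes and the lower panel to the segment's own class, which centres the values by construction. In the upper panel 80 of 88 points lie below 0, in the lower panel 47 of 88.

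Use of a segment within its class was fitted with the summed counts of the class as the offset. This centres the segments on their class, so the near-even split, 47 of 88 negative with a median of -0.04, follows from the construction. None had an adjusted p under 0.05 (edgeR quasi-likelihood test with Benjamini-Hochberg adjustment over all genes). At an unadjusted p under 0.05, 9 were lower and 6 were higher, against 17.3% of all genes in either direction. The smallest adjusted p of this fit were 0.101 for Igkv12-46, 0.103 for Igkv11-106 and 0.105 for Igkv3-7. Igkv12-46 held 1.59 ± 0.68% of the kappa class in knockout and 3.67 ± 2.13% in wild-type spleens (SD, n = 9 and n = 10), Igkv11-106 held 2.46 ± 0.74% in knockout and 4.02 ± 1.41% in wild-type spleens, and Igkv3-7 held 1.53 ± 1.01% in knockout and 0.81 ± 0.19% in wild-type spleens. The share of a segment cannot move without others moving the opposite way, since shares sum to 100%.

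Other genes of antibody-producing cells were taken from gene lists, and none of them passed with edgeR. All 9 measured genes of the constant regions and J chain had negative log2 fold changes (median -0.42, 6 at an unadjusted p under 0.05). Over all genes tested, 48.1% were negative and 8.79% were lower at that unadjusted p. Examples were Ighm, the IgM heavy chain, at -0.42 (SE 0.15), Ighg2c, an IgG heavy chain, at -0.75 (SE 0.31), and Jchain, which joins IgM and IgA into polymers, at -0.37 (SE 0.13). All 12 plasma cell genes, of which Jchain is on both lists, were negative as well (median -0.26, 5 at an unadjusted p under 0.05), among them Prdm1, the transcription factor Blimp-1, at -0.53 (SE 0.17), and Sdc1, the surface marker CD138, at -0.36 (SE 0.12). The plasma cell list summed to 1186 to 1917 CPM in knockout and 1452 to 2644 CPM in wild-type spleens.

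B cell genes had a median of -0.04, with 8 of 13 negative, and summed to 8741 to 19536 CPM in knockout and 10914 to 16081 CPM in wild-type spleens. Germinal centre genes had a median of 0.21 with 3 of 8 negative, and T cell genes a median of -0.02 with 6 of 10 negative. The 3 tested genes of V(D)J recombination, of 6 listed, had a median of -0.39, and the list summed to 2.02 to 8.12 CPM in knockout and 2.99 to 7.72 CPM in wild-type spleens. Red pulp macrophage and neutrophil genes had medians of 0.05 and 0.06. None of the 10 lists held a gene with an adjusted p under 0.05 (edgeR quasi-likelihood test with Benjamini-Hochberg adjustment). DESeq2 called Prdm1 and Cr2, a complement receptor of B cells, both lower. At an unadjusted edgeR p under 0.05 the B cell list held 1 lower and 1 higher gene, the red pulp macrophage and exocrine pancreas lists 1 higher gene each, and the germinal centre, V(D)J recombination, T cell, erythroid and neutrophil lists none.

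Lists of red blood cell and pancreas genes lay on the other side of 0. All 9 erythroid genes were positive (median 0.53), and haemoglobin took 3.98 to 22.5% of the counts in knockout and 3.10 to 10.9% in wild-type spleens. All 10 genes of the exocrine pancreas, which lies beside the spleen, were positive (median 1.67), with a summed level of 13.9 to 10368 CPM in knockout and 11.4 to 2898 CPM in wild-type spleens. Leaving haemoglobin out of the denominator gave log2 ratios of -0.70, -0.64 and -0.45 for the summed Ighv, Igkv and Iglv levels. With the B cell list as the denominator they were -0.80, -0.78 and -0.54, and with that list without Cd74, its most abundant gene, -0.60, -0.55 and -0.33. Both of these denominators were chosen after the data were seen. The part of red cell or pancreas RNA in single segment values was not tested.

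**Figure D5:**
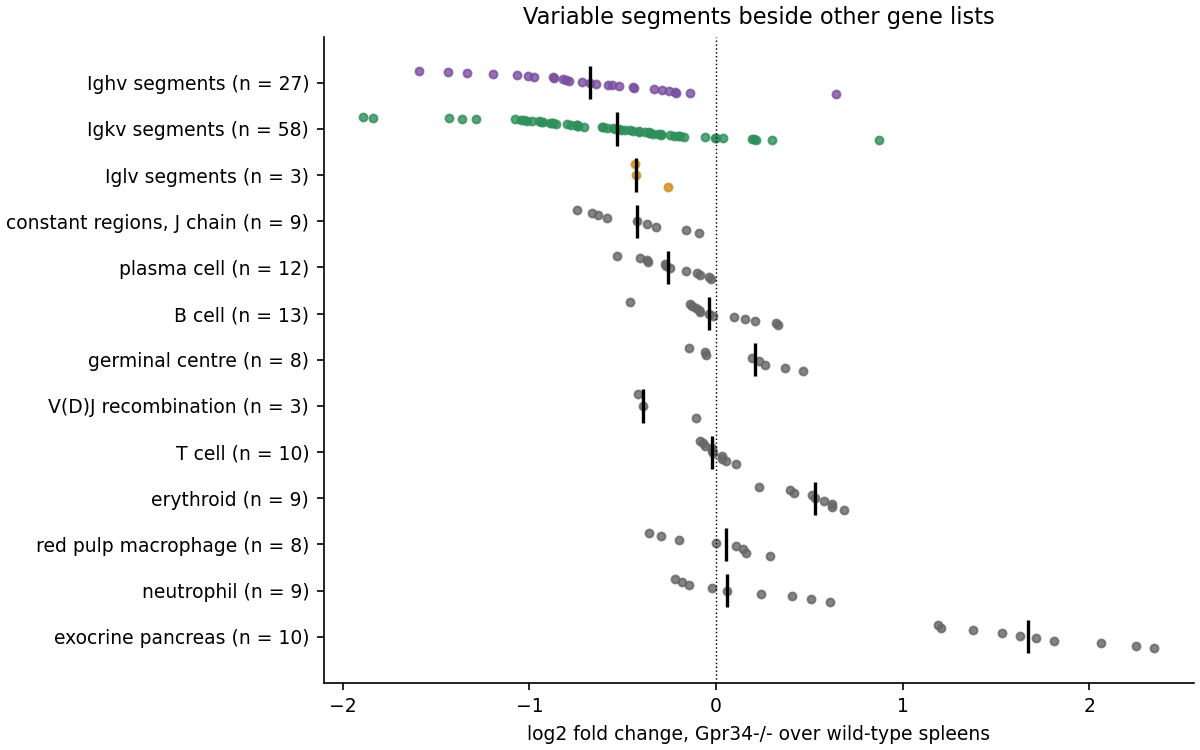
Log2 fold change of Gpr34-/- over wild-type spleens (horizontal axis) for each tested gene of the 3 segment classes and of 10 gene lists; vertical bars are medians. The medians of the segments (-0.68, -0.53 and -0.43) and of the constant region genes (-0.42) lie left of those of B cell genes (-0.04) and T cell genes (-0.02).

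In the 12 libraries of cultured dendritic cells, which are not B cells, the 89 segments summed to 30 to 282 counts or 0.539 to 5.31 CPM. The spleens held 616 to 2235 CPM of them. A count was found for 67 of the 89 segments in at least 1 of these libraries, with at most 51 counts of a segment in a library (Igkv4-91).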

How the data were processed

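The deposited files hold whole-number read counts per Ensembl gene for each library, with no normalization by the authors. TopHat 1.3.3, Bowtie 0.0.9v, SAMtools, bedtools, DESeq and the build mm9 are named without roles, per the submitters' processing notes. Library preparation followed standard Illumina steps on total RNA, per the labels' protocols. No source used here states strand use, the annotation or how ambiguous reads were counted. A gene without a line was set to 0. Of 29120 IDs 26090 had a symbol. Coordinates and sequences are those of GRCm38 (GENCODE M21), found by Ensembl ID. Of the counts up to 200 of the variable segments, 61.1 to 90.5% were even in a spleen, so not all are independent molecules. This differed between segments, also at higher counts. Counts of Igkv5-39, Igkv8-27 and Ighv8-12 were even in every spleen, and those of Ighv3-6 and Igkv17-121 were not. Shares, ranks and effective numbers compare segments and may be distorted by this, to an extent that was not tested.

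Segment counts per spleen were 8083 to 14041 for Ighv, 44266 to 98780 for Igkv and 11309 to 24851 for Iglv in knockout spleens, and 7706 to 18368, 60484 to 120922 and 7444 to 27894 in wild-type spleens. The main test was edgeR 4.0.16 (R 4.3.3): TMM, edgeR's filter on low counts, robust quasi-likelihood F-test of genotype in 19 spleens, a biological coefficient of variation of 0.394 over 20371 genes with 17 residual degrees of freedom, and Benjamini-Hochberg adjustment at 0.05. The SE is the log2 fold change over the square root of F. A second fit took class sums as offsets. Alternatives used DESeq2 1.42.0, limma 3.58.1, other factors, no filter, a replicate block, spleens left out and a GC trend removed. EdgeR with TMM, DESeq2 and limma voom were tested on simulated counts. The class offsets, GC offsets, replicate block, other factors and the fit without filter were not. Sums, shares, effective numbers and spreads are described without a test.

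The members, gene lists and tests were chosen with earlier results of these data known. Segments are named if they had an adjusted p under 0.05 (none), were among the 5 highest mean shares of Ighv or Igkv or any Iglv, among the 5 highest ratios of highest to median share or the 3 smallest coefficients of variation per class (mean of at least 1 CPM), led a spleen, or had the fewest counts. Others were chosen after their values were seen.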

Additional observations from a re-analysis of the deposited data

Results flagged for a closer look

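Groups of 9 or 10 spleens, 80 in all, were the class sums, effective numbers, lambda share and the named segments' shares, per genotype. In 17 of them a spleen's distance to its nearest neighbour took up more of the group's range than Dixon's 95% value allows. Chance would flag about 1 in 20 groups not chosen by their values. That rate does not hold here, because many segments were named for a high share in a spleen. Shares within a class also depend on each other, so the 17 are a description only. Among knockout spleens the flagged values were Ighv3-6 in spleen 9 (41.1% of its class, others 13.2 to 21.05%), Ighv14-4 in spleen 5 (20.6%, others 1.93 to 9.71%), Ighv1-18 in spleen 5 (14.6%, others 4.96 to 9.81%), Ighv7-1 in spleen 3 (11.1%, others 5.95 to 8.34%) and Igkv1-131 in spleen 9 (3.99%, others 0.633 to 1.36%).

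Among wild-type spleens, spleen 1 stood above the rest in summed Ighv level (323 CPM, others 121 to 199 CPM) and in summed Iglv level (337 CPM, others 125 to 234 CPM), and Igkv17-121 held 9.33% of its class there (others 2.63 to 4.52%). Spleen 3 was high for Ighv14-4 (25.1%, others 4.33 to 10.6%) and Igkv6-20 (16.3%, others 1.68 to 3.17%). Single segments were high in spleen 6 (Ighv1-47, 7.96%, others 0.410 to 1.54%), spleen 9 (Ighv4-1, 18.9%, others 1.93 to 9.02%), spleen 10 (Igkv15-103, 11.6%, others 2.07 to 4.70%), spleen 5 (Igkv4-70, 8.45%, others 1.15 to 4.33%) and spleen 4 (Igkv8-24, 8.15%, others 2.23 to 3.75%). With very few counts, Igkv1-35 in spleen 9 (0.0160%) and Igkv18-36 in spleen 8 (0.0796%) also stood apart.

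Outside the spleens, the 12 dendritic cell libraries held 1780 counts of variable segments in all, 30 to 282 in a library.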

How the results depend on the processing

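No variable segment had an adjusted p under 0.05 with edgeR's TMM factors, without the filter, with the replicate block or with class offsets. The same held with the GC trend removed (added after the data were seen) and without knockout spleens 4, 6 and 9. Over all genes these settings called 36, 25, 3, 36, 41 and 297, in the order given. With 3 genes called, the 0 of the replicate block says little about the segments. The segment count was 1 with RLE factors, 9 without composition factors, 23 with DESeq2 and 2 with limma voom. Over all genes those called 43, 190, 883 and 790, against 36 with TMM. With a single spleen left out, 0 to 11 segments were called, with 8 to 1051 of all genes called. The cause was not tested. Negative log2 fold changes numbered 80, 76 to 81 with a spleen left out, 80 with the replicate block, 78 to 82 under the other alternatives, and 47 with class offsets, which remove the class's own shift by construction. Relative to the class, 7 of 32 named segments changed sign: Ighv6-3 (0.36), Ighv6-6 (0.19), Ighv7-1 (0.37), Igkv1-131 (0.41), Igkv6-13 (0.088), Igkv8-24 (0.14) and Iglv2 (0.086). Igkv1-131 also did so with the GC trend removed (0.024), and Igkv18-36 with the replicate block (-0.22). Spleens share only a number in the labels, so they were not treated as paired. Correlations of same-numbered spleens ran from -0.078 to 0.290. For knockout spleens 1, 2, 4 and 8 the best-correlated wild-type spleen had the same number, and for the other knockout spleens it did not. Whether a number marks anything shared was not tested. Summed levels, lambda share, effective numbers, spreads and the number of segments moved by less than the spread between spleens, or by less than 1.5 times, under every alternative run. Leaving out each spleen gave log2 ratios of -0.79 to -0.59 for Ighv, -0.73 to -0.60 for Igkv and -0.55 to -0.38 for Iglv, and a lambda difference of 1.22 to 2.76 points. Scaling cannot move the lambda share, a ratio within a library, so it was not rerun for it. Depth limits mainly segments under 1 CPM.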
